A study of Mus musculus with 11 samples.

Results

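miR-139 is made from a single hairpin, and both of its mature arms, mmu-miR-139-5p and mmu-miR-139-3p (miR-139-5p and miR-139-3p in what follows), were followed through small RNA libraries of sorted mouse splenic CD8+ T cells. The arms were taken by name and are 2 of the 2128 rows of the deposited table, which carries 1978 mature names. Each stood on 1 row, with whole counts in all 11 libraries, and both passed the filter on low counts, as did 545 rows in all. They were chosen with their difference between virtual memory (VM) and true naive (TN) cells known, so that difference is described here without a test. The comparisons of dirty with clean mice, and of the VM minus TN difference between those environments, were tested.

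The groups were Dirty_VM (3 libraries, replicates 1 to 3), Dirty_TN (3 libraries), Clean_VM (3 libraries) and Clean_TN (2 libraries, replicates 2 and 3). All cells were sorted as CD4- CD8+ CD49dlo GFP+, with CD44hi cells named stamped VM and CD44lo cells named stamped TN. VM cells have a memory phenotype without having met foreign antigen. The labels define neither dirty nor stamped, give no strain, age or reporter allele for the GFP, and do not say whether replicates came from separate mice, so p-values measure the spread between these libraries. Each preparation began with 10000 sorted cells at over 95% purity.

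A microRNA hairpin is cut by Drosha and Dicer into a duplex of 2 arms, and the arm loaded into Argonaute guides repression of mRNAs that match its seed, bases 2 to 8. The arm that is not kept is usually degraded, so the 2 arms of a hairpin often differ greatly in abundance. miR-139-5p is the abundant arm. In mouse CD8+ T cells miR-139 has been described, together with miR-150, as a microRNA whose level falls as cells become cytotoxic effectors and which restrains Eomes and perforin. Its host gene Pde2a encodes a phosphodiesterase that is stimulated by cGMP and degrades cAMP and cGMP.

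The mature sequences are shown because the seeds set what each arm can pair with, and the seed is in capitals (RefSeq, GRCm38.p6).
mmu-miR-139-5p: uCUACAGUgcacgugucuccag
mmu-miR-139-3p: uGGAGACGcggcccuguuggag
The hairpin is shown because the results below turn on the balance of its arms, and here the capitals mark the 5p arm and then the 3p arm.
Mir139: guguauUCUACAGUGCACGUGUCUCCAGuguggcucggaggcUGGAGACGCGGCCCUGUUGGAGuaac
It lies on the plus strand at chr7:101475376-101475443, with the 5p arm at chr7:101475382-101475403 and the 3p arm at chr7:101475418-101475439. Both arms are 22 nt long, and 14 bases separate them. Folding the hairpin alone (RNAfold) gave 19 base pairs between the arms, 2 of them G-U, and left 2 bases of each arm unpaired. The GC content was 54.5% for the 5p arm and 68.2% for the 3p arm.

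In GENCODE M21, which uses the same build, the hairpin lies within Pde2a on the same strand (chr7:101421691-101512827). All 10 Pde2a transcripts that span it have it in an intron and none has an exon on it. In the protein-coding transcript Pde2a-201, which has 31 exons, this is intron 2, and the hairpin lies 23907 bases into it. A second annotated gene, Gm45837, spans the same place on the same strand. The nearest other annotated miRNA gene, Gm22655, is 405.7 kb away. Among 1679 mature names of the table with a RefSeq sequence, 0 shared bases 2 to 8 with either arm. miR-6397 shared bases 2 to 7 with miR-139-3p and had 0 counts in all libraries.

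Library totals ran from 2614396 to 16312004 estimated counts, a 6.24-fold range, and 3 counts corresponded to between 0.184 and 1.15 counts-per-million (CPM). The lymphocyte miRNA miR-150-5p, abundant in mature T cells, held between 66250 and 134300 CPM in every library. Dirty_TN replicate 3 lay nearest to a Clean_TN library. Over the 545 rows its log2 levels differed by a root mean square of 0.518 from Clean_TN replicate 2 and 0.899 from Clean_TN replicate 3. From Dirty_TN replicates 1 and 2 the values were 0.901 and 1.28. Having a nearest library of the other environment was not particular to it. Dirty_TN replicate 2 was also nearest to a Clean_TN library (0.983), against 1.23 and 1.28 from its own group. Libraries of other groups, such as Clean_VM replicate 2, were likewise nearest to one of the other environment (0.746, against 0.749 from the closest of its own group). The 0.518 of Dirty_TN replicate 3 was nonetheless the smallest distance between any pair of libraries, and the next smallest was 0.746. The miR-139 differences that involve Dirty_TN are also given without Dirty_TN replicate 3.

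miR-139-5p was far higher in VM than in TN libraries in both environments, with dirty and clean levels close to each other in each subset. Levels here are CPM on TMM-scaled totals. Dirty_VM replicates 1, 2 and 3 had 8859, 10880 and 11140 CPM of miR-139-5p, and Dirty_TN replicates had 2901, 2866 and 2861 CPM. Clean_VM replicates 1, 2 and 3 had 8330, 9356 and 10650 CPM, and Clean_TN replicates 2 and 3 had 2984 and 3086 CPM. The lowest VM library lay above the highest TN library in both environments, and the 5 TN libraries lay close together. In raw terms the arm held between 0.754% and 1.14% of the estimated counts of a VM library and between 0.24% and 0.333% of those of a TN library. It was the 20th to 25th most abundant row in VM libraries and the 32nd to 35th in TN libraries.

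miR-139-3p was also higher in VM libraries. In the edgeR fit to the 545 filtered rows over all libraries, no test of its environment passed. Dirty_VM replicates 1, 2 and 3 had 331.4, 611.4 and 525.3 CPM of miR-139-3p, and Dirty_TN replicates had 279, 214.3 and 93.13 CPM. Clean_VM replicates 1, 2 and 3 had 725.1, 852.8 and 894.3 CPM, and Clean_TN replicates 2 and 3 had 97.34 and 103 CPM. The lowest Dirty_VM library, at 331.4 CPM, stood just above the highest Dirty_TN library, at 279 CPM, while in clean mice the subsets were far apart. Dirty_TN replicate 3 sat at the level of the Clean_TN libraries and below the other Dirty_TN libraries.

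**Figure D1:**
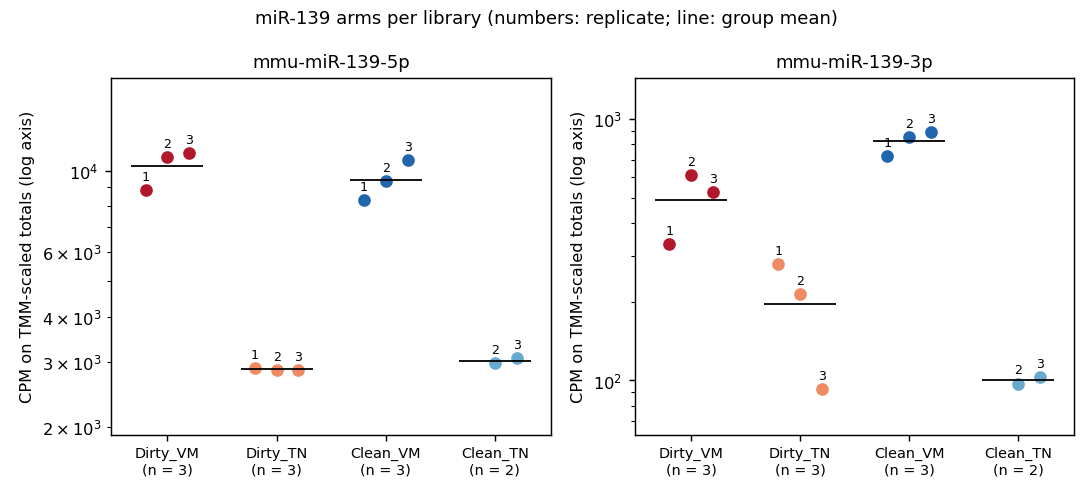
Level of miR-139-5p (left) and miR-139-3p (right) in each library, as CPM on TMM-scaled totals on a log axis, by group; points are libraries numbered by replicate and lines are group means. The 5p arm forms a VM level between 8330 and 11140 CPM and a TN level between 2861 and 3086 CPM, while the 3p arm is spread from 93.13 to 279 CPM within Dirty_TN.

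By group means, miR-139-5p ranked Dirty_VM (10290 ± 1247 CPM, SD, n = 3), Clean_VM (9446 ± 1164, n = 3), Clean_TN (3035 ± 71.8, n = 2) and Dirty_TN (2876 ± 21.5, n = 3). Dirty_VM and Clean_VM libraries overlapped, so the order of these neighbours is not resolved. For miR-139-3p the order was Clean_VM (824.1 ± 88.2 CPM, n = 3), Dirty_VM (489.4 ± 143, n = 3), Dirty_TN (195.5 ± 94.4, n = 3) and Clean_TN (100.2 ± 4.01, n = 2). Dirty_TN and Clean_TN libraries overlapped for this arm. In sorted bulk cells, fewer cells of a kind and less RNA per cell cannot be told apart.

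The VM minus TN differences, a description since they were part of how the arms were chosen, came from 1 fit over all rows. In dirty mice the log2 difference was 1.84 ± 0.16 (SE) for miR-139-5p, or 3.58-fold, and 1.33 ± 0.33 for miR-139-3p, or 2.51-fold. Leaving out Dirty_TN replicate 3 gave 1.90 for the 5p and 1.04 for the 3p arm. In clean mice it was 1.64 ± 0.19 for miR-139-5p, or 3.11-fold, and 3.04 ± 0.42 for miR-139-3p, or 8.23-fold. The arm with the larger difference was thus the 5p arm in dirty mice and the 3p arm in clean mice. Both arms had VM libraries wholly above TN libraries in both environments, as did 41 of all 545 rows (7.52%). By environment that share was 16.9% of rows in dirty and 28.3% in clean mice. In size of difference, 21 rows in dirty mice and 54 in clean mice were at or above miR-139-5p. For miR-139-3p the counts were 41 rows in dirty mice and 10 in clean mice. Over all rows edgeR called 12.1% for VM against TN in dirty mice and 17.4% in clean mice.

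Whether the environment itself moved the arms was tested by comparing dirty with clean mice within each subset. For miR-139-5p the log2 difference was 0.12 ± 0.16 in VM cells (95% interval -0.22 to 0.47, adjusted p = 0.783, edgeR quasi-likelihood with Benjamini-Hochberg adjustment over 545 rows). In TN cells it was -0.08 ± 0.18 (95% interval -0.46 to 0.30, edgeR adjusted p = 0.912). All 3 Dirty_TN libraries lay below both Clean_TN libraries for this arm, as was the case for 8.99% of rows. The TN difference was -0.30 without Dirty_TN replicate 3 (edgeR adjusted p = 0.366). That replicate had 2861 CPM of this arm, close to the 2901 and 2866 CPM of the other Dirty_TN libraries. Over all 11 fits that each left out 1 library the TN difference ran from -0.30 to -0.14. Each of these lay further from 0 than the -0.08 of all libraries. The intervals given here are not adjusted for the number of rows.

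For miR-139-3p the point estimates of the environment pointed in opposite directions in the 2 subsets, and neither passed in the fit to the filtered rows over all libraries. In VM cells the log2 difference of dirty from clean mice was -0.75 ± 0.33 (95% interval -1.47 to -0.04, unadjusted p = 0.0401, edgeR adjusted p = 0.305). All 3 Dirty_VM libraries lay below all 3 Clean_VM libraries, as was the case for 8.99% of rows. In TN cells it was 0.96 ± 0.38 (95% interval 0.14 to 1.79, unadjusted p = 0.0252, edgeR adjusted p = 0.559), with libraries that overlapped. Both directions held under each scaling tried. With no filter on low counts the VM difference passed in edgeR over all libraries, as given below. Without Dirty_TN replicate 3 both passed in edgeR, with -0.80 in VM cells (adjusted p = 0.0456) and 1.08 in TN cells (adjusted p = 0.0308). Averaged over the subsets the difference was 0.02 ± 0.12 for miR-139-5p (edgeR adjusted p = 1.00) and 0.11 ± 0.25 for miR-139-3p (edgeR adjusted p = 0.973). These averages were -0.109 and 0.14 without Dirty_TN replicate 3 (edgeR adjusted p = 0.826 each).

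These results stand against a background with few calls. edgeR called 0 of 545 rows (0.00%) for dirty against clean mice in VM cells, in TN cells and averaged over both. At an unadjusted p under 0.05 there were 81, 38 and 28 rows. DESeq2 called 19, 3 and 1 rows in these comparisons, and limma-voom 1, 0 and 1. Without Dirty_TN replicate 3 edgeR called 26 rows in VM cells and 28 in TN cells.

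The interaction asked whether the VM minus TN difference itself was larger or smaller in dirty than in clean mice. For miR-139-5p it was 0.20 ± 0.24 on the log2 scale (95% interval -0.31 to 0.71, edgeR adjusted p = 0.728), and 0.38 without Dirty_TN replicate 3 (edgeR adjusted p = 0.302). For miR-139-3p it was -1.72 ± 0.50 (95% interval -2.81 to -0.63, unadjusted p = 0.0047, edgeR adjusted p = 0.117), so the smaller VM excess of the 3p arm in dirty mice did not pass. It lay among the 33 lowest of 545 rows. edgeR called 0 rows (0.00%) for the interaction, with 93 at an unadjusted p under 0.05, while DESeq2 called 41 and limma-voom 0. miR-139-3p was among the rows that passed by DESeq2 (-1.69, adjusted p = 0.00853). With no filter on low counts it passed in edgeR over all libraries, as given below. Without Dirty_TN replicate 3 it also passed in edgeR (-1.88, adjusted p = 0.0021), as did 73 rows in all. Over the fits that each left out another library, the adjusted p of miR-139-3p did not pass, and over all 11 such fits it ran from 0.0021 to 0.352.

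**Figure D2:**
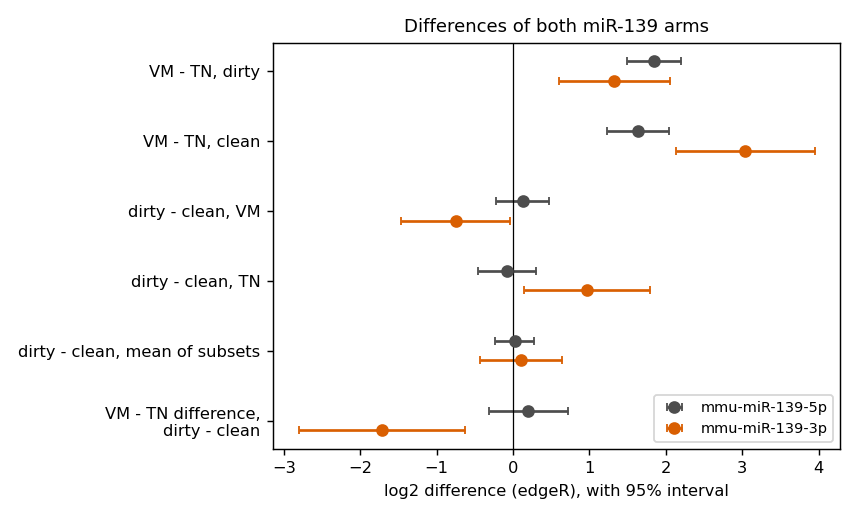
Log2 differences of miR-139-5p (grey) and miR-139-3p (orange) with 95% intervals from the edgeR fit over all 11 libraries; the lowest row is the VM minus TN difference in dirty minus that in clean mice. The 5p arm stands near 0 for every comparison that involves the environment, and the 3p arm stands at -0.75 in VM cells, 0.96 in TN cells and -1.72 for the interaction.

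The balance of the arms within a library does not depend on how libraries are scaled. The 3p arm held 3.61%, 5.32% and 4.5% of the miR-139 counts in Dirty_VM replicates 1, 2 and 3, and 8.77%, 6.96% and 3.15% in Dirty_TN replicates. It held 8.01%, 8.35% and 7.75% in Clean_VM replicates 1, 2 and 3, and 3.16% and 3.23% in Clean_TN replicates 2 and 3. The 95% exact Clopper-Pearson intervals reached at most 0.487 percentage points to either side and cover counting error only. Every Dirty_VM share lay below the Clean_VM and above the Clean_TN shares. Dirty_TN replicates 1 and 2 had shares near those of Clean_VM, and Dirty_TN replicate 3 had that of Clean_TN. Put as a ratio, the 5p arm was 11 to 11.9 times as abundant as the 3p arm in Clean_VM libraries and 30 to 30.7 times in Clean_TN libraries.

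**Figure D3:**
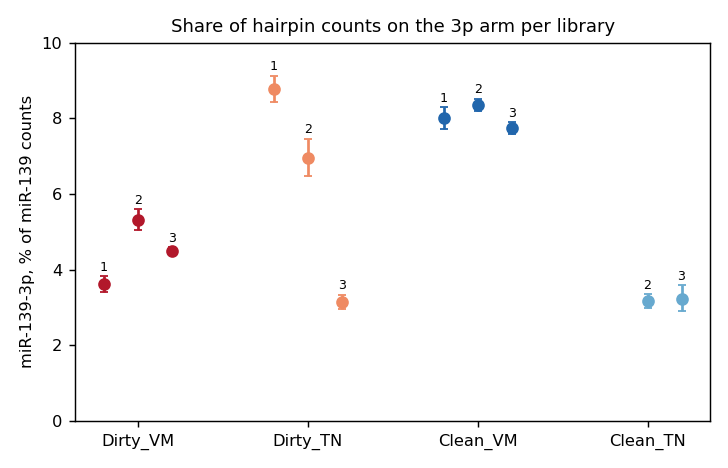
Share of miR-139 counts that fell on the 3p arm in each library, in percent, by group; bars are 95% exact binomial intervals and numbers are replicates. Clean_VM libraries lie between 7.75% and 8.35% and Clean_TN libraries at 3.16% and 3.23%, while Dirty_TN libraries run from 3.15% to 8.77%.

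The environment was tested on the log2 ratio of 3p to 5p counts, with 0.5 added to each count, by exact permutation of the environment labels within subsets. Averaged over both subsets, dirty minus clean was -0.0076 (two-sided, exact permutation p = 0.97, and 0.97 after adjustment over 4 tests). Leaving out Dirty_TN replicate 3 gave 0.223 (exact permutation p = 0.6). Within VM cells it was -0.92, with Dirty_VM at -4.43 ± 0.29 and Clean_VM at -3.52 ± 0.06 (SD, n = 3 each, exact permutation p = 0.1, the smallest that 3 against 3 libraries allow, adjusted p = 0.2). Within TN cells it was 0.90, with Dirty_TN at -4.02 ± 0.82 (n = 3) and Clean_TN at -4.92 ± 0.02 (n = 2, exact permutation p = 0.4, where the smallest possible is 0.1, adjusted p = 0.533). The TN value was 1.36 without Dirty_TN replicate 3 (exact permutation p = 0.333, the smallest that 2 against 2 libraries allow). The VM minus TN difference in the ratio was -0.41 in dirty mice and 1.40 in clean mice, and the dirty value was -0.87 without Dirty_TN replicate 3. The difference between the environments over all libraries, a test added after the ratios had been seen, was -1.82 (two-sided, exact permutation p = 0.035, and 0.14 after adjustment). Permuting labels within subsets sets this p against no environment effect in either subset, not against equal effects in both. The difference did not pass after adjustment. Without Dirty_TN replicate 3 it was -2.28 (exact permutation p = 0.0167), and without each Clean_VM, each Dirty_VM and each of the other Dirty_TN libraries in turn the unadjusted p was 0.05 or 0.06. In the libraries under 5000000 counts alone it was -2.09 and in the deeper ones -1.67.

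Other hairpins shifted their arms in the same libraries. Among 73 other hairpins with at least 10 counts on both arms in every library, the ratio of Dirty_TN replicate 3 lay nearer to the Clean_TN mean than to that of Dirty_TN replicates 1 and 2 in 65. The median absolute log2 difference of those 73 from Dirty_TN replicates 1 and 2 was 0.67, and from Clean_TN 0.21. For miR-139 the same differences were -1.38 and -0.02. The SD of the miR-139 log2 ratio over the 11 libraries was 0.65, against a median of 0.49 for the other 73, of which 17 had a larger SD. The part that this library-wide shift has in the miR-139 ratio was not tested.

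Arms of a hairpin come from the same precursor, so their VM minus TN differences were set beside those of the 136 hairpins with both arms tested and 1 row per arm. A further hairpin, miR-466i, had its 5p arm on 2 rows and was left out. Averaged over environments, miR-139-5p stood at 1.74 ± 0.13 and miR-139-3p at 2.18 ± 0.27. Both arms lay above 0 in 52 hairpins, and above 0 in each environment in 21, miR-139 included. In 7 hairpins, chosen by size after the values were seen, both arms were at least 1 log2 unit higher in VM cells: miR-139, miR-21a, miR-30a, miR-151, miR-195a, miR-486a and miR-7683. The arms of miR-139 differed by 0.44 in the averaged difference, against a median absolute difference of 0.38, and 58 hairpins differed by as much or more, miR-139 included. The nearest in this gap were miR-1306 (0.44), miR-425 (0.43) and miR-30d (0.43), whose 5p arms stood at -0.08, 0.10 and -0.37. In the interaction the miR-139 arms differed by -1.92, against a median absolute difference of 1.01, and 23 hairpins differed by as much or more, miR-139 included.

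**Figure D4:**
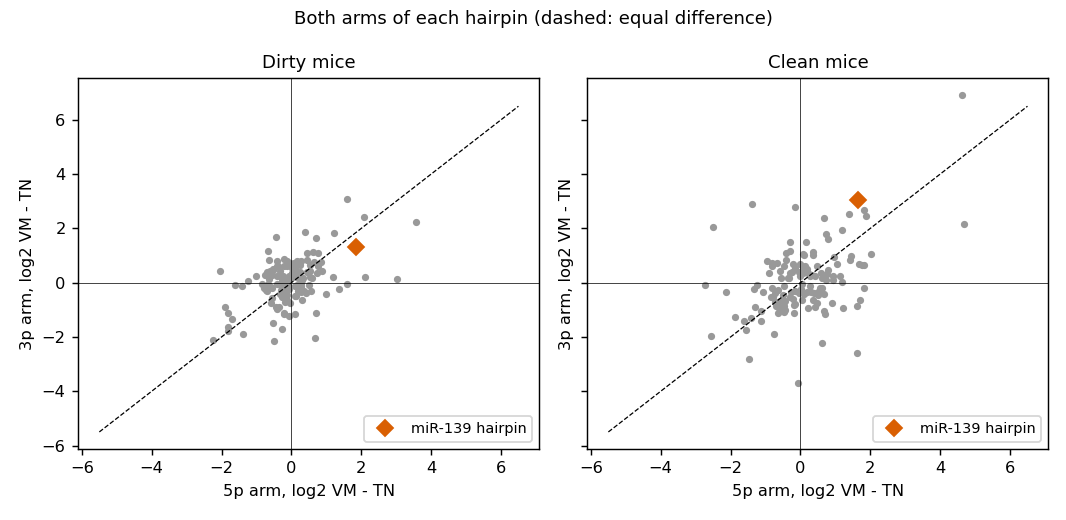
VM minus TN log2 difference of the 3p arm (vertical axis) against the 5p arm (horizontal axis) for 136 hairpins in dirty mice (left) and clean mice (right); the orange diamond is miR-139 and the dashed line marks equal differences. miR-139 lies below the line in dirty mice (1.84 for 5p, 1.33 for 3p) and above it in clean mice (1.64 and 3.04).

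The rows most like each arm were found by the root mean square difference of log2 levels over the 11 libraries, each row centred on its own mean, among 263 rows with a mean of 10 CPM or more. Closest to miR-139-5p was miR-504-5p (0.184), from an intron of Fgf13, followed by miR-149-5p (0.303), miR-21a-5p (0.37), miR-96-5p (0.421) and miR-146a-5p (0.421). miR-139-3p came 25th in likeness to its own partner arm (0.617). Closest to miR-139-3p were miR-30a-3p (0.406), miR-130b-5p (0.434), miR-30c-2-3p (0.531), miR-504-5p (0.533) and miR-151-3p (0.566), with miR-139-5p in 7th place. All 5 of these had the larger VM minus TN point estimate in clean mice, as miR-139-3p had, untested. The rows were chosen for likeness over these same libraries, so a shared direction is in part built into the choice. miR-30a-3p had a log2 VM minus TN difference of 1.82 in dirty and 2.68 in clean mice, and miR-151-3p one of 0.30 in dirty and 2.17 in clean mice. Among the rows like the 5p arm, miR-504-5p had 1.58 in dirty and 1.68 in clean mice, miR-149-5p had 1.20 in dirty and 1.17 in clean mice, and miR-21a-5p had 2.08 in dirty and 1.69 in clean mice.

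Lists of related miRNAs, picked with earlier results of these data known, give the setting for the averaged VM minus TN difference, in which 23.7% of 545 rows passed, with 11.4% up and 12.3% down in VM cells, and the median log2 difference was 0.09. Of 12 miRNAs linked to naive or quiescent T cells, 0 rose and 4 fell in VM cells, with a median of -0.34. They were miR-125a-5p (-2.07), miR-181a-5p (-1.69), a tuner of antigen receptor signalling in thymocytes, miR-99b-5p (-1.62) and miR-101a-3p (-0.74). miR-139-5p, at 1.74, differed in sign from these 4, while 3 of the 12 had an averaged estimate above 0. In dirty mice alone miR-30c-5p was higher in VM cells (0.59, edgeR adjusted p = 0.0475). Since the arms and the list were chosen with earlier results known, the difference in sign is a description only. Of 16 miRNAs linked to T cell activation or memory, 9 rose and 3 fell, with a median of 0.52. The risers included miR-21a-5p (1.88), known to go up when T cells are activated, and miR-146a-5p (1.06), which dampens NF-kB through TRAF6 and IRAK1. The 3 that fell included miR-212-5p (-1.44) and miR-132-3p (-1.36). Of 25 miRNAs in introns of protein-coding genes, 4 rose and 4 fell, with a median of -0.13. Among these were miR-504-5p (1.64), miR-151-3p (1.24) and miR-211-5p (-2.19), from introns of Fgf13, Ptk2 and Trpm1. No member of the 3 lists passed in edgeR for dirty against clean mice or for the interaction.

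Markers of T cells and of other cells were looked at in the same libraries, and the differences given for them are VM minus TN averaged over environments. Of 5 lymphocyte miRNAs 1 rose and 1 fell in VM cells, against 23.7% of all rows passing in the averaged difference. In dirty mice alone 0 of the 5 passed, against 12.1% of all rows. The 4 other miRNAs named below as having risen passed in the averaged difference. In dirty mice alone none of them passed, and in clean mice alone miR-486a-5p (adjusted p = 0.00985) and miR-143-3p (adjusted p = 0.0146) passed in edgeR, while miR-126a-3p (0.0856) and miR-122-5p (0.0568) did not. The 3 endothelial and platelet miRNAs summed to 29.6 to 53.0 CPM in Dirty_VM, 15.3 to 29.7 in Dirty_TN, 21.7 to 48.0 in Clean_VM and 18.4 to 19.3 in Clean_TN. Nearly all of this was miR-126a-3p, which rose in VM cells (0.87 ± 0.24, edgeR adjusted p = 0.0208), while miR-126b-3p had 0 counts in 8 libraries. The 4 hepatocyte and muscle miRNAs summed to 1248 to 2489 CPM in Dirty_VM, 928.4 to 1835 in Dirty_TN, 1224 to 2755 in Clean_VM and 860.2 to 1088 in Clean_TN. That was almost wholly the liver miRNA miR-122-5p, which rose in VM cells (0.76 ± 0.26, edgeR adjusted p = 0.0482) and was more abundant than miR-139-3p in every library. Of the 4 hepatocyte and muscle miRNAs, 3 had an averaged estimate above 0 and 1 passed. The 4 erythroid miRNAs summed to 64.1 to 109.3 CPM in Dirty_VM, 38.1 to 76.2 in Dirty_TN, 61.5 to 137.5 in Clean_VM and 35.2 to 45.9 in Clean_TN, with miR-144-3p at 0 in 6 libraries. Of these, miR-486a-5p rose in VM cells (1.14 ± 0.27, edgeR adjusted p = 0.009). The 5 stromal miRNAs summed to 81.0 to 129.7 CPM in Dirty_VM, 54.5 to 85.3 in Dirty_TN, 67.4 to 112.8 in Clean_VM and 46.7 to 58.9 in Clean_TN. Among them miR-143-3p rose in VM cells (0.80 ± 0.18, edgeR adjusted p = 0.00577), and miR-199a-5p had 0 counts in 8 libraries. It was the only 1 of the 4 stromal miRNAs tested, miR-143-3p, that passed. Of those 4, 3 had an averaged estimate above 0, with 3 above 0 in dirty and 2 in clean mice. The 2 myeloid miRNAs summed to at most 3.61 CPM in any library and the 3 neural ones to at most 1.21 CPM, with miR-124-3p at 0 in 10 libraries and miR-138-5p in 9. The endothelial sum was below the level of miR-139-3p in every library, and the part of any of these lists in the miR-139 differences was not tested.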

How the data were processed

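Small RNA from 10000 sorted cells per sample was made into libraries with a NEBNext kit from 60 to 100 ng of RNA, with inserts of about 18 to 35 bp, per the labels' protocols. The authors deposited 1 table of expected counts (estimated counts, 88.7% of them whole) per mature miRNA and precursor. The submitters' processing notes name mm10; the aligner, counter and annotation release are not given in the sources used here, so how reads shared between loci were split is unknown.

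Exact duplicate rows were kept once (120 removed, 2008 left) and counts rounded. filterByExpr kept 545 rows with 99.99% of counts. edgeR 4.0.16 fitted 1 quasi-likelihood model over 11 libraries with TMM scaling and a mean per group. Tests were two-sided at an adjusted p of 0.05, and an SE is the absolute log2 difference over the square root of F. Arm ratios were tested with exact permutations (Python 3.11.15). Alternatives used DESeq2 1.42.0 and limma 3.58.1 (voom). Scripts were tested on simulated data. RNAfold was 2.7.2. Named miRNAs were both arms, the 5 rows most like each, hairpins nearest in arm gap and called list members. The members and lists were chosen with earlier results of these data known.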

Additional observations from a re-analysis of the deposited data

How the results depend on the processing

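Over all alternatives, 431 values stayed the same, 32 moved, 31 reversed, 6 newly passed and 10 weakened. Staying the same meant keeping direction and side of the threshold, or moving by less than the replicate spread. For counts of rows called it meant staying within 1.5-fold. All 10 that weakened were the arm ratio interaction, judged by its unadjusted permutation p. Over all libraries that interaction had not passed after adjustment. The VM minus TN difference stayed above 0 for both arms in both environments under every alternative run. For miR-139-5p it was 1.42 in clean mice with plain library totals and 1.21 in the libraries under 5000000 counts, where the averaged value was 1.49. The averaged dirty minus clean difference of miR-139-5p, near 0 throughout, was -0.0485 with DESeq2 and with its size factors, -0.0118 with library totals, -0.0417 with no filter, -0.0279 with the stricter filter of 10 CPM, -0.0638 with rows summed per miRNA, -0.00425 in the shallower and -0.0552 in the deeper libraries. For miR-139-3p it was -0.0248 in the deeper libraries, and the arm ratio gave 0.119 in the shallower ones. With no filter, miR-139-3p passed in edgeR for dirty against clean VM cells (-0.81, adjusted p = 0.0377) and for the interaction (-1.69, adjusted p = 0.000329). By DESeq2 the interaction was -1.69. The arm ratio interaction was -2.09 (exact permutation p = 0.167) in the shallower and -1.67 (exact permutation p = 0.444) in the deeper libraries, designs too small to pass. Library totals moved the median of all rows by over 0.1: it was -0.127 against 0.0815 for VM minus TN in clean mice, -0.0253 against 0.158 for dirty minus clean in TN cells, 0.191 against 0.0806 in VM cells and 0.236 against -0.0452 for the interaction. The cause of these shifts was not tested.

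For counts of rows called, in TN cells dirty against clean gave 3 with DESeq2 and 4 with no filter. In VM cells it gave 19 with DESeq2, 1 with limma-voom, 2 with library totals, 16 with no filter, 2 with the stricter filter and 18 when only those groups were fitted. Averaged, DESeq2, limma-voom and the fit with no filter gave 1 each, and the interaction gave 41 with DESeq2, 30 with no filter and 16 with the stricter filter.

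Leaving out 1 library at a time, miR-139-5p VM minus TN ran from 1.35 to 1.77 in clean mice and from 1.57 to 1.78 averaged. Its dirty minus clean difference lay between -0.14 and 0.31 within VM and between -0.145 and 0.0834 averaged. For miR-139-3p dirty minus clean lay between 0.46 and 1.08 within TN, between -1.09 and -0.61 within VM and between -0.17 and 0.14 averaged, and the interaction between -1.97 and -1.27. The arm ratio ran from -0.168 to 0.223 for dirty minus clean averaged and from -2.28 to -1.50 for the interaction. Calls ran from 33 to 120 for VM against TN in clean mice, 42 to 94 in dirty mice and 86 to 145 averaged. For dirty against clean they lay between 0 and 28 within TN, between 0 and 26 within VM, at 0 averaged and between 0 and 73 for the interaction, with the upper ends without Dirty_TN replicate 3.

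The labels do not say whether same-numbered libraries came from the same mice. Their deviations from the group means correlated between -0.554 and 0.416 over all pairs. Between VM and TN of 1 environment the correlations were -0.463, 0.238 and 0.416 for dirty replicates 1, 2 and 3, and 0.254 and -0.263 for clean replicates 2 and 3. Not every pair was over 0.1, so the numbers were not used as pairs. With a replicate block, VM against TN in clean mice called 56 rows instead of 95, the miR-139-3p interaction was -1.69 (edgeR adjusted p = 0.265) and the averaged arm ratio difference of dirty from clean was -0.168 (exact permutation p = 0.6875). Both arms had at least 342 counts in every library.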
